A study of Mus musculus with 8 samples.

Results

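Complement is a cascade of plasma and tissue proteins, and the 9 genes described here encode its early components, receptors for its cleaved fragments and one of its inhibitors. They are C1qa, C1qb, C1qc, C1ra, C3, C4b, C3ar1, C5ar1 and Serping1. They were chosen by symbol, from a list, and all 9 were found among the 15035 genes of the table. All 9 also passed the filter on low values, which 14870 genes passed.

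The tissue was the auditory nerve, dissected from mouse cochleas at postnatal day 21. It contains the spiral ganglion neurons, their myelinated axons, Schwann cells and satellite glia, the oligodendrocytes and astrocytes of its central end, and resident macrophages, fibroblasts and vessels. Bulk poly(A) RNA sequencing gave 8 libraries, each from 1 mouse with its 2 cochleas pooled. 4 libraries are labelled wild type (1 to 4) and 4 are labelled heterozygous for Mef2c (5 to 8), a transcription factor gene. The labels give neither the allele, the strain, the sex nor the litter. The question set by the design is how the nerve's transcripts differ between these genotypes.

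As background, C1q is built from the products of C1qa, C1qb and C1qc, and tissue macrophages and microglia are its main source in nervous tissue. C1q bound to a surface activates the proteases C1r and C1s, which cleave C4 and C2, and the resulting enzyme cleaves C3. C3 fragments tag membranes and synapses for phagocytes that carry complement receptors. The small fragments C3a and C5a attract and activate myeloid cells through C3ar1 and C5ar1. Serping1 encodes the C1 inhibitor, which blocks C1r and C1s.

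None of the 9 genes passed the test between genotypes, and for most the 95% interval lay within a 2-fold change. With limma-trend, 0 of 9 had a Benjamini-Hochberg adjusted p under 0.05, against 0.0807% of all genes tested (12 of 14870), and their adjusted p ran from 0.531 to 0.953. At an unadjusted p under 0.05 there were also 0 of 9, against 14.1% of all genes. In the 19 alternatives to this fit, limma-voom among them, 0 of the 9 passed as well. The genotypes overlapped in all 9 genes, whereas they did not overlap in 7.26% of all genes. The authors' deposited table gave an FDR under 0.05 for 0 of the 9, for which its FDR lay between 0.505 and 0.900, and for 242 genes in all. The log2 fold change, on the scale log2(value + 1), was above 0 for 4 of the 9 genes and below 0 for 5. It was above 0 for 52.3% of all genes. The median log2 fold change was -0.04 over the 9 and 0.02 over all genes tested. For 8 of the 9, all but C5ar1, the 95% interval of the log2 fold change lay within a 2-fold change either way, as it did for 80.9% of all genes. For C1qb, C1qc, C4b and Serping1 it lay within a 1.5-fold change, as it did for 51.8% of all genes. In bulk tissue, fewer cells of a type and less RNA per cell cannot be told apart.

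**Figure D1:**
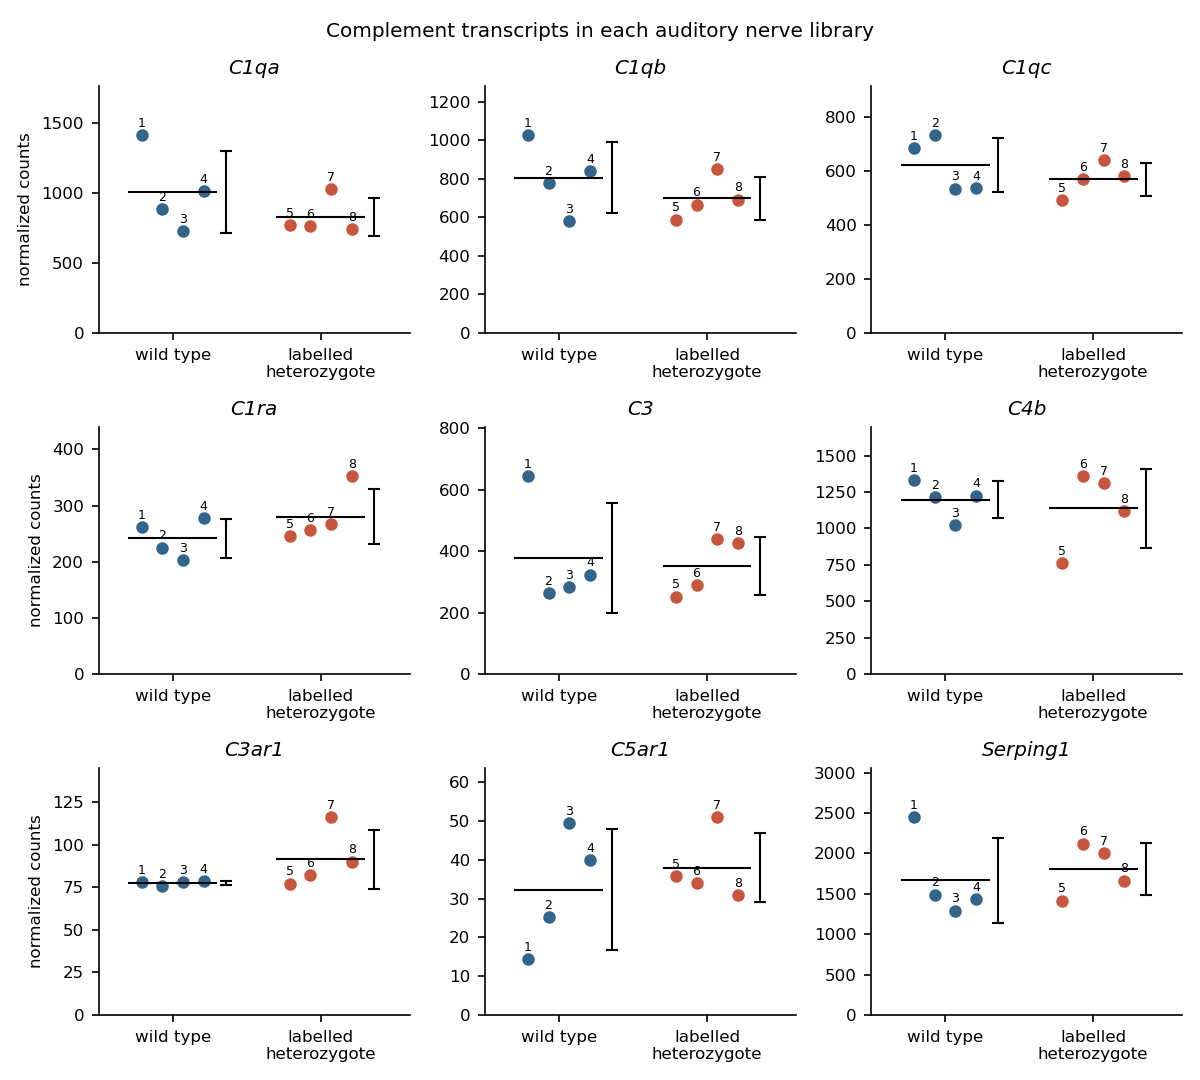
Normalized counts (y axes, starting at 0) of the 9 complement genes in each library, with wild type in blue and the libraries labelled heterozygote in red. Points are libraries with their number, horizontal lines are group means and bars are ± SD (n = 4 each). The groups overlap in every panel, and wild-type library 1 is the highest of 8 in C1qa, C1qb, C3 and Serping1.

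The libraries also differed within each genotype. Estimated depth ran from 13363365 reads in wild-type library 1 to 21507072 in wild-type library 2. Xist, the X-inactivation transcript, was at 12 normalized counts in wild-type library 1 and at 7.6 in library 5, while the other 6 had 5175 to 8615. When libraries were weighted by how well they matched their group, wild-type library 1 had the lowest weight, 0.2985, against 0.668 to 1.90 in the others. Mef2c, the targeted gene, had 438.6, 498.4, 508.7 and 402.2 normalized counts in wild-type libraries 1 to 4. It had 583.3, 704.9, 735.1 and 649.8 in libraries 5 to 8, higher in all 4 than in any wild-type library (log2 fold change 0.53, limma-trend adjusted p 0.186). The authors' deposited table gave Mef2c an FDR of 0.0162. This direction is opposite to what loss of 1 copy would give if the allele made no transcript, but the labels do not give the allele, so the value over the whole gene cannot check the genotype. Directions below are therefore between libraries as labelled. Snap25, a synaptic vesicle fusion protein of neurons, had 26606 to 38849 normalized counts. All 12 Schwann cell markers of a list passed the filter on low values. Since 14870 of 15035 genes passed it, this does not identify the tissue.

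The level of each transcript was compared per kilobase of its longest coding transcript, as the mean of all 8 libraries ± SD. Serping1 was the most abundant, at 981 ± 232 normalized counts per kilobase, a level above that of 91.8% of genes. C1qa followed at 881 ± 224, C1qb at 692 ± 139 and C1qc at 497 ± 68.4. The ranges of neighbours overlapped throughout these 4. C4b had 217 ± 36.9 normalized counts per kilobase, below C1qc in every library. C1ra had 87.5 ± 14.8 and C3 had 71.0 ± 25.9, which overlapped, and both were below C4b in every library. The receptors were the lowest, with 19.6 ± 3.14 for C3ar1 and 13.8 ± 4.78 for C5ar1, a level above only 7.06% of genes. The receptors overlapped with each other and with no other member.

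The 3 C1q chain genes lie side by side on the minus strand of chromosome 4, within 18.7 kb (chr4:136880129-136898803, GRCm38), in the order C1qb, C1qc, C1qa. Start regions were read from the set of RefSeq start regions used here, which held 6 of the 9 genes. It had no entry for C1qa, C4b or Serping1. The 250 bases before each start were searched on both strands for AGGAAGT, a form of the site bound by the myeloid factor PU.1. It was found for C1qb, C1qc and C5ar1, 3 of 6, and in 7.69% of all 32851 start regions. TTGNGNAA, a form of the C/EBP site, was found for C1ra, C3 and C5ar1, against 11.7% of all. TTCNNNGAA, a form of the site bound by STAT factors downstream of interferons, was found in 0 of 6, against 7.02% of all. The MEF2 site consensus was also found in 0 of 6, against 2.92% of all. A match describes letters and is not evidence of binding, and no match says only that these letters are not in this window. C3ar1, also in the set, had no match to any of these forms, and C5ar1 matched both AGGAAGT and TTGNGNAA. The stretches below are examples, in which C1qb and C1qc carry an AGGAAGT match and C3 does not. Each is written 5′ to 3′ on the minus strand of GRCm38.p6. Capitals mark the reverse complement of AGGAAGT in the C1q genes and TTGNGNAA in C3. The C1qb stretch (chr4:136886201-136886320) and the C3 stretch (chr17:57228137-57228256) are the 120 bases before the start. The C1qc stretch (chr4:136893066-136893164) opens the window searched for that gene.
C1qb: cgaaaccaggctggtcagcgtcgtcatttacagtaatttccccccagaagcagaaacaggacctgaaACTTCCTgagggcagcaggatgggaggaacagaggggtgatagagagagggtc
C1qc: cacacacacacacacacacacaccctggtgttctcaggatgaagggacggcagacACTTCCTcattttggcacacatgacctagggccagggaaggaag
C3: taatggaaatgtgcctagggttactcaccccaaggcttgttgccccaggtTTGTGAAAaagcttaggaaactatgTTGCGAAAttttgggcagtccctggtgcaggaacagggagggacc

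C1qa, the A chain, had 1409, 881.6, 725.1 and 1013 normalized counts in wild-type libraries 1 to 4. It had 769.0, 762.4, 1028 and 741.6 in libraries 5 to 8. Wild-type library 1 was highest, and library 7 stood above the other 3 of its group. The group means were 1007 ± 293 and 825 ± 136 (SD, n = 4 each), which gave a log2 fold change of -0.26 ± 0.19 (SE), with a 95% interval of -0.66 to 0.15. The limma-trend adjusted p was 0.531. Without wild-type library 1 the log2 fold change of C1qa was -0.08, and without wild-type library 3 it was -0.40. The correction for transcript length brought it to -0.04.

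C1qb, the B chain, had 1025, 776.7, 581.1 and 839.5 normalized counts in wild-type libraries 1 to 4, and 587.6, 666.5, 851.0 and 692.0 in libraries 5 to 8. The order of libraries resembled that of C1qa, with wild-type library 1 highest and wild-type library 3 lowest. Its log2 fold change was -0.19 ± 0.17 (SE), with a limma-trend adjusted p of 0.618. C1qc, the C chain, had 685.2, 733.4, 535.3 and 538.7 normalized counts in wild type, and 492.1, 571.6, 640.8 and 581.3 in libraries 5 to 8. Here wild-type library 2 was highest and library 5 lowest. C1qc's log2 fold change was -0.12 ± 0.14 (SE), with a limma-trend adjusted p of 0.714. Without the 2 libraries low in Xist the log2 fold changes of C1qa, C1qb and C1qc were -0.05, 0.017 and 0.0032. With the length correction those of C1qb and C1qc were 0.024 and 0.076, on the other side of 0.

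Covariation among the 9 genes was examined over the 8 libraries, 36 pairs in all, with two-sided exact permutation tests adjusted by Benjamini-Hochberg over the pairs. C1qa and C1qb had a Pearson r of 0.940 (exact permutation p 0.000521, adjusted p 0.0188) and a Spearman rho of 0.905 (exact permutation p 0.00456, adjusted p 0.164). It was the only pair to pass 0.05 for r, and 0 pairs passed for rho. With the 2 libraries farthest from the median of C1qa left out, r was 0.872. Within wild type r was 0.966 and within the libraries labelled heterozygote 0.848, over 4 libraries each. The correction for transcript length gave an r of 0.838 with an adjusted exact permutation p of 0.157, so the call did not hold there. It did not hold without wild-type library 1 (r 0.908, adjusted exact permutation p 0.154). Without both libraries low in Xist r was 0.937, with an adjusted exact permutation p of 0.175. So few libraries have few orderings, so a single pair could hardly pass there at any r. The fits without wild-type libraries 2, 3 or 4 or without library 7 gave r from 0.937 to 0.948, with adjusted exact permutation p of 0.0750 to 0.0786.

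C1qc followed the other chains less closely in these libraries, though the difference between pairs was not tested. For C1qb and C1qc, r was 0.692 and rho 0.714 (exact permutation p 0.0604 and 0.0576, adjusted p 0.290 and 0.302). For C1qa and C1qc, r was 0.554 and rho 0.524 (exact permutation p 0.154 and 0.197, adjusted p 0.395 and 0.373). Without the 2 libraries farthest from the median, these r fell to 0.561 and 0.243. The ratio of C1qa to C1qb stayed between 1.07 and 1.37 in the 8 libraries, and that of C1qa to C1qc between 1.20 and 2.06. Both ratios were highest in wild-type library 1, and both overlapped between genotypes. The points share library and depth, so they describe these 8 libraries. By Pearson r, the genes outside the 9 most like C1qa over the 8 libraries were Gpx7 (r = 0.988), Rps4x (0.973) and Supt3 (0.971), each highest in wild-type library 1. These genes, and those given below for other members, were picked as the highest r among all genes tested. Such r are high by selection and were not tested.

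**Figure D2:**
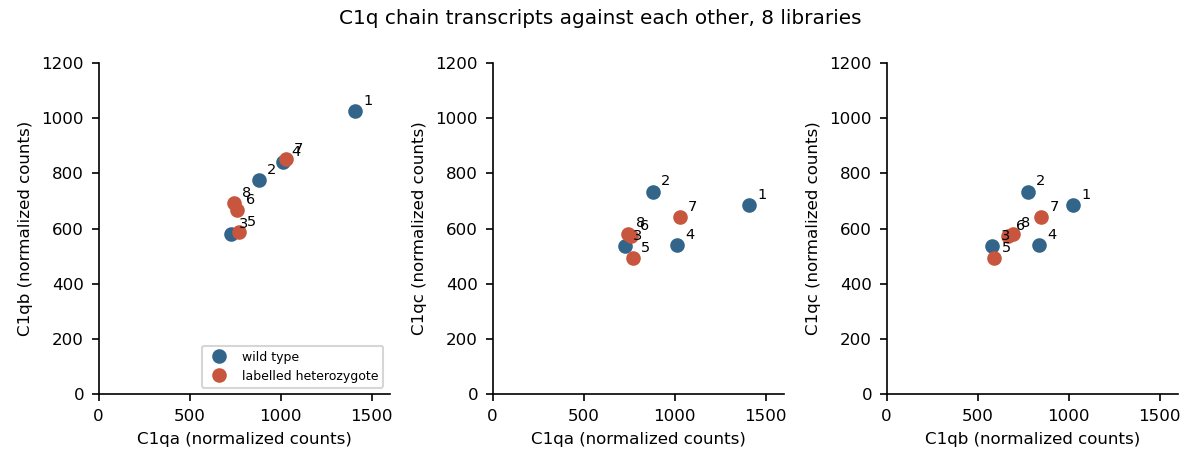
Normalized counts of the C1q chain genes against each other in the 8 libraries (numbered, wild type in blue, labelled heterozygote in red, all axes from 0). C1qa and C1qb lie close to a line, with an r of 0.940 on the log2 scale, and C1qc spreads more around either.

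C1q was set beside 20 marker genes of macrophages and microglia, a list that does not contain C1q. All 20 were tested and 0 had a limma-trend adjusted p under 0.05. At an unadjusted p under 0.05 there were 5, against 14.1% of all genes. The log2 fold change was below 0 for 15 of the list, with a median of -0.11. The summed level of the list was 6747 to 10053 normalized counts over wild-type libraries and 5807 to 7935 over libraries 5 to 8. It was highest in wild-type library 1 and lowest in library 5. The 3 C1q chains together had 1842 to 3120 normalized counts in wild type and 1849 to 2520 in libraries 5 to 8. As a share of the marker sum, C1q was 30.9% ± 2.55 (SD, n = 4) over wild-type libraries and 29.3% ± 3.06 (SD, n = 4) over libraries 5 to 8. The share ran from 25.5% in library 6 to 33.1% in wild-type library 4, and the groups overlapped. The summed C1q level thus varied 1.69-fold across libraries, and its share of the marker sum 1.30-fold. The part of macrophage markers in the C1q values was not tested.

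C1ra encodes a mouse C1r protease. It had 260.9, 224.7, 202.6 and 277.8 normalized counts in wild type, and 244.9, 256.2, 266.7 and 351.8 in libraries 5 to 8. Library 8 was the highest and the other 7 overlapped. Its log2 fold change was 0.21 ± 0.17 (SE), with a limma-trend adjusted p of 0.590, and 0.09 without library 8. C1rb is a close copy of C1ra, so reads could have been split between them. C1s1, the partner protease, had 192.5 to 367.3 normalized counts in wild type and 237.0 to 339.4 in libraries 5 to 8 (log2 fold change -0.09, limma-trend adjusted p 0.868). The ratio of C1ra to C1s1 was 0.833 ± 0.173 (SD, n = 4) over wild-type libraries and 1.01 ± 0.0729 (SD, n = 4) over libraries 5 to 8, and the groups overlapped.

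Serping1, the C1 inhibitor, had 2446, 1489, 1293 and 1437 normalized counts in wild-type libraries 1 to 4. It had 1416, 2123, 2005 and 1665 in libraries 5 to 8. Wild-type library 1 was above all others, and the other 3 wild-type libraries lay near library 5. Serping1's log2 fold change was 0.14 ± 0.19 (SE), with a limma-trend adjusted p of 0.743. Single libraries moved this value, to 0.34 with wild-type library 1 left out and to 0.04 with wild-type library 3 left out. Without the 2 libraries low in Xist it was 0.45, with an unadjusted limma-trend p of 0.00247 and an adjusted p of 0.197, so Serping1 did not pass there either. The summed level of 12 fibroblast markers was 55549 normalized counts in wild-type library 1 against 28470 to 33626 in the other wild-type libraries, and 39848 to 55060 in libraries 5 to 8. Of these 12 markers 0 passed the limma-trend test, and 2 had an unadjusted p under 0.05, against 14.1% of all genes. Of the same markers 10 were above 0, with a median log2 fold change of 0.22. Their part in the Serping1 values was not tested. The genes outside the 9 most like Serping1 over the 8 libraries were Ramp1 (r = 0.977), L1td1 (0.967) and Slc35c1 (0.960). Each was highest in wild-type library 1, as Serping1 was.

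C4b encodes complement C4, the substrate of C1s. It had 1329, 1214, 1020 and 1225 normalized counts in wild type, and 762.2, 1357, 1311 and 1117 in libraries 5 to 8. Library 5 was the lowest of all, and the other 7 lay between 1020 and 1357. C4b's log2 fold change was -0.10 ± 0.17 (SE), with a limma-trend adjusted p of 0.794, and 0.077 without library 5. C4a, a near-identical copy of C4b, had 5.7 to 30.5 normalized counts, and the counting could have split reads between the copies. Library 5 was also the lowest in the summed level of 8 astrocyte markers, with 19486 normalized counts against 24247 to 40403 in the other 7. It was the lowest for 12 oligodendrocyte markers too. Of these 3 were called lower in the libraries labelled heterozygote and 0 higher, against 0.0807% of all genes called either way. Leaving out library 2, 4 or 8 ended those calls, since limma-trend then called 0 genes of the whole table. Of the astrocyte markers 0 were called, and 4 had an unadjusted limma-trend p under 0.05, against 14.1% of all genes. Their median log2 fold change was -0.48. The part of these markers in the C4b values was not tested. Most like C4b over the 8 libraries were Plet1 (r = 0.977), Zfp229 (0.973) and Krt18, an epithelial keratin (0.968). Each was lowest in library 5, as C4b was.

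C3, on whose cleavage all routes of the cascade converge, had 643.7, 262.6, 282.3 and 323.7 normalized counts in wild type. It had 252.0, 290.1, 438.2 and 425.7 in libraries 5 to 8. Wild-type library 1 was far above the rest of its group, and libraries 7 and 8 were above libraries 5 and 6. The group means were 378 ± 179 and 352 ± 94.3 (SD, n = 4 each), which gave a log2 fold change of -0.04 ± 0.28 (SE), with a limma-trend adjusted p of 0.953. Its sign changed when single libraries were left out: it was 0.24 without wild-type library 1 (limma-trend adjusted p 0.648), 0.10 without library 5 and 0.034 without library 6. Without both libraries low in Xist it was 0.39 (limma-trend adjusted p 0.395). C3 was among the more variable members, with a residual SD of 0.50 on the log2 scale against a median of 0.24 over all genes. The ratio of C4b to C3 ran from 2.06 in wild-type library 1 to 4.68 in library 6. Most like C3 over the 8 libraries were Tyrobp, a signalling adaptor of myeloid cells (r = 0.955), Cyth4 (0.952) and Tyms (0.948). Each was highest in wild-type library 1, as C3 was, and the likeness was not tested.

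C3ar1, the C3a receptor, had 77.9, 75.7, 77.9 and 78.5 normalized counts in wild type, and 77.1, 81.9, 115.9 and 90.0 in libraries 5 to 8. The wild-type libraries were nearly equal, and library 7 was highest. Its log2 fold change was 0.21 ± 0.23 (SE), with a limma-trend adjusted p of 0.682, and 0.09 without library 7. C5ar1, the C5a receptor, had 14.3, 25.2, 49.5 and 39.9 normalized counts in wild type, and 35.8, 34.0, 50.9 and 30.9 in libraries 5 to 8. These are low counts, with 1 read worth 0.789 to 1.30 normalized counts, and wild-type library 1 was lowest. C5ar1's log2 fold change was 0.34 ± 0.43 (SE), with a 95% interval of -0.60 to 1.28 and a limma-trend adjusted p of 0.728, and 0.01 without wild-type library 1. Neutrophils carry C5ar1 in quantity. Of 10 listed neutrophil markers 5 were tested. Their summed level was 134.1 to 2550 normalized counts in wild type and 717.9 to 6391 in libraries 5 to 8, with library 7 highest. The wild-type maximum was library 1, where Ltf alone had 2176, and the other wild-type libraries had 134.1 to 407.9. All 5 were above 0, and 3 did not overlap between genotypes, against 7.26% of all genes. With limma-trend 0 had an adjusted p under 0.05 and 4 an unadjusted p under 0.05, against 0.0807% and 14.1% of all genes. The part of neutrophils in the receptor values was not tested.

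**Figure D3:**
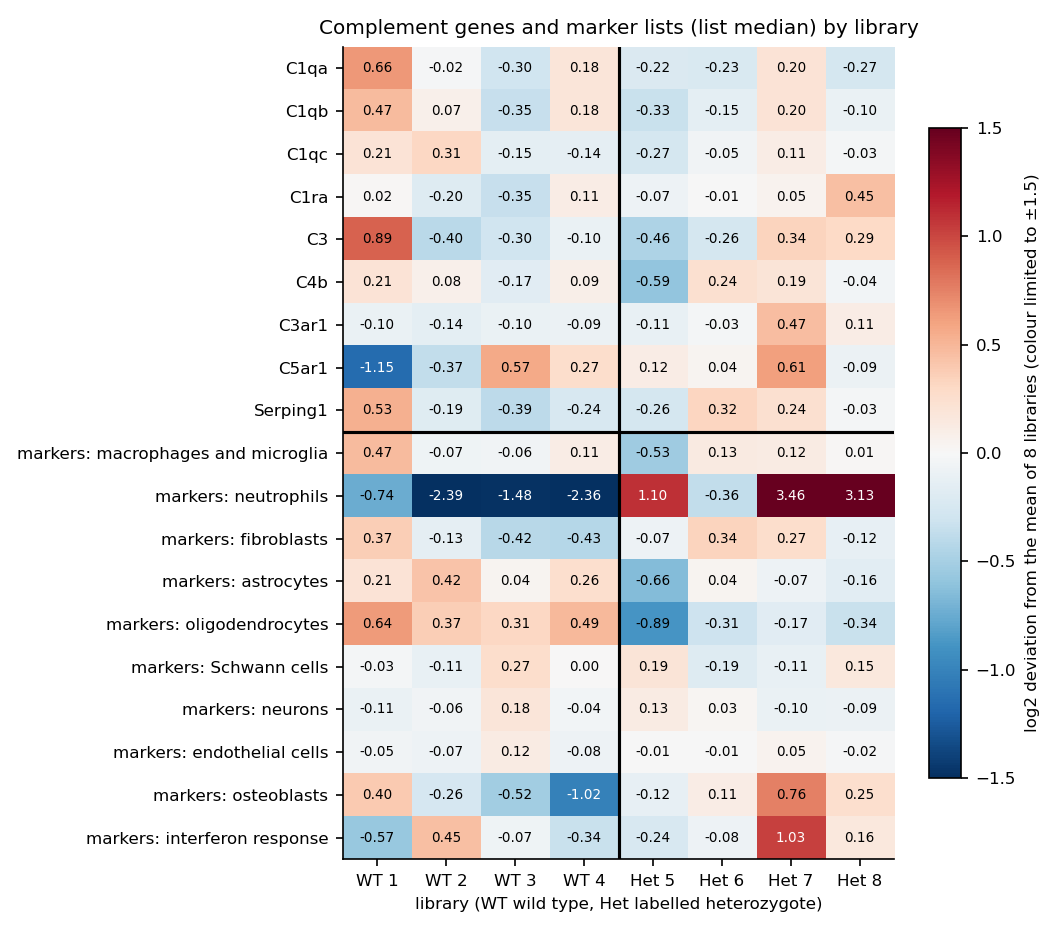
Log2 deviation of each complement gene (upper rows) and median deviation of each marker list (lower rows) from its mean over the 8 libraries, with the value in each cell and the colour limited to ±1.5. Wild-type library 1 is high in C1qa, C1qb, C3 and Serping1 and in the oligodendrocyte, macrophage, osteoblast and fibroblast rows. Library 5 is low in C4b and in the oligodendrocyte, astrocyte and macrophage rows.

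Several of these genes are known targets of interferons, among them Serping1 and C4b. The interferon response list of 12 genes had summed levels of 3731 to 6512 normalized counts in wild type and 4430 to 9265 in libraries 5 to 8, highest in library 7. Of its 12 genes 0 passed the limma-trend test, and 1 had an unadjusted p under 0.05, against 14.1% of all genes. Of the list 11 were above 0 and the median log2 fold change was 0.32. Library 7 was also the highest of 8 for C3ar1 and C5ar1. Serping1 had 2005 normalized counts in library 7 and was highest in wild-type library 1, at 2446. C4b had 1311 in library 7 and was highest in library 6, at 1357. The summed interferon level was 3731 in wild-type library 1 and 3772 in wild-type library 4. The part of interferon response genes in the values of the 9 was not tested.

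Other complement genes were read from a list of 52, of which 30 were in the table and 29 were tested. With limma-trend, 0 of 29 had an adjusted p under 0.05, against 0.0807% of all genes. Only Csmd1 had an unadjusted p under 0.05, against 14.1% of all genes. The genotypes overlapped in all 29, whereas they did not overlap in 7.26% of all genes. The log2 fold change of these 29 was above 0 for 16 and below 0 for 13, with a median of 0.06. The authors' deposited table gave an FDR under 0.05 for 0 of the 30.

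Among regulators, Clu, a lipid carrier that also blocks the terminal complex, was the most abundant gene of the list, with 21432 to 37649 normalized counts in wild type and 22699 to 25091 in libraries 5 to 8. Its log2 fold change was -0.33 (limma-trend adjusted p 0.371). Cd59a, a membrane inhibitor of the terminal complex, had a log2 fold change of -0.20 (limma-trend adjusted p 0.375). Cd55, which dissociates C3 convertases, had 0.30 (adjusted p 0.504).

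The remaining proteases and receptors also missed the threshold. C2, cleaved by C1s beside C4, had 333 to 533 normalized counts in wild type and 385 to 591 in libraries 5 to 8 (log2 fold change 0.06, limma-trend adjusted p 0.902). Cfb and Cfp, factor B and properdin of the alternative pathway, were at log2 fold changes of -0.09 (limma-trend adjusted p 0.947) and -0.08 (0.923). Cfd was on the list of other complement genes but had no values in these data. Both Cfb and Cfp were highest in wild-type library 1, at 115.5 and 180.4 normalized counts, and without that library their log2 fold changes were 0.39 and 0.18. Itgam and Itgb2 encode the subunits of complement receptor 3, which is shared by macrophages and neutrophils. Their log2 fold changes were 0.14 and 0.36 (limma-trend adjusted p 0.832 and 0.629), with library 7 highest for both, at 242.2 and 214.9 normalized counts. Itgax, a subunit of complement receptor 4, had only 3.6 to 35.8 normalized counts and a log2 fold change of 1.18 (limma-trend adjusted p 0.440). Csmd1, Sez6 and Sez6l2, neuronal membrane proteins with complement control domains, had log2 fold changes of 0.50, 0.37 and -0.22 (limma-trend adjusted p 0.354, 0.428 and 0.454). The correction for transcript length lowered that of Csmd1 to 0.20.

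**Figure D4:**
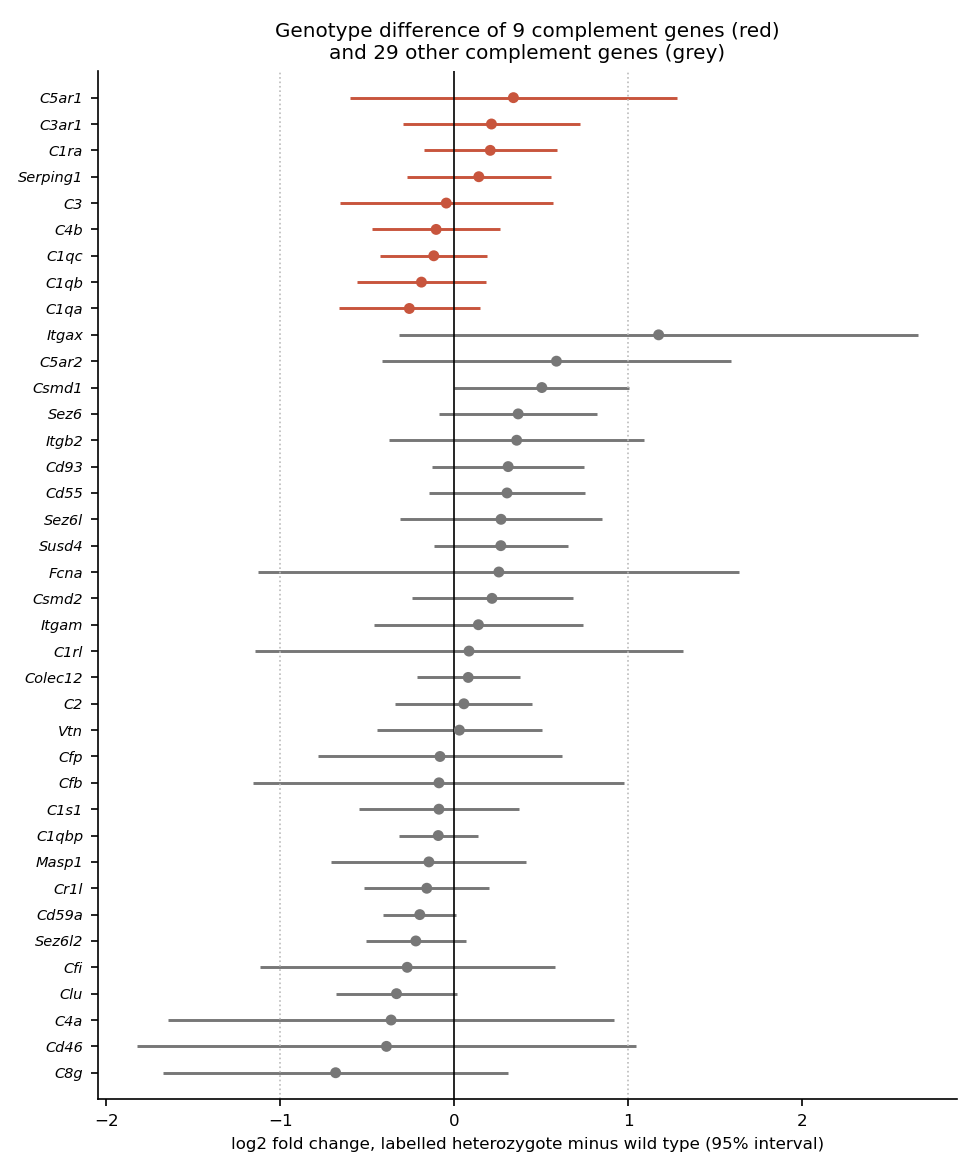
Log2 fold change of the libraries labelled heterozygote against wild type, with 95% intervals, for the 9 complement genes (red) and the 29 other complement genes tested (grey). Dotted lines mark 2-fold changes. The intervals of all 9 include 0, and that of C5ar1 is the widest of the 9.

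**Figure D5:**
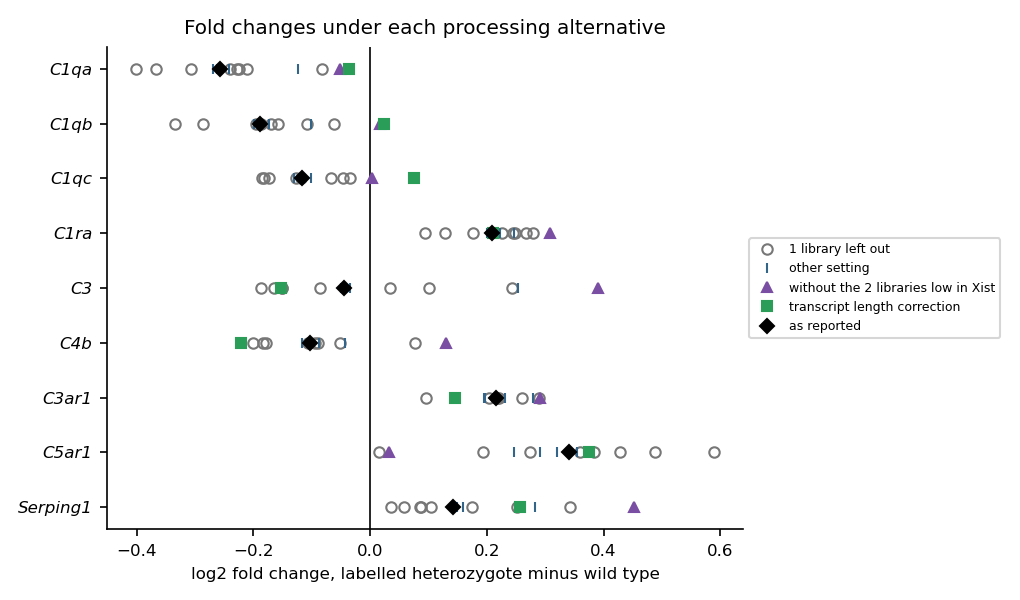
Log2 fold change (x axis) of the 9 genes as reported (diamonds) and under each alternative: 1 library left out (circles), other settings (ticks), without the 2 libraries low in Xist (triangles) and with the correction for transcript length (squares). C1qb, C1qc, C3 and C4b have values on both sides of 0.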

How the data were processed

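The authors' deposited table has 1 signal column per library. Judged from the values, it holds reads per gene after division by a library size factor, called normalized counts here. The submitters' processing notes name STAR, Partek, DESeq2 and the build mm10. Annotation, strand setting and filters are not given in the sources used here. The authors' deposited p-value, FDR, ratio and log2 ratio columns were copied as they stand, and a signed fold change score was not used, per the file headers. RNA with an integrity number under 7 was excluded and libraries were made from 50 ng, per the labels' protocols.

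Low values were whole multiples of 1 step per library in 87.8% to 91.7% of cases (within 0.05), too few to recover reads, so no count model was run. A gene was tested if 4 or more libraries reached 10 normalized counts, on log2(value + 1) with limma-trend (limma 3.58.1, R 4.3.3), checked on simulated data. Benjamini-Hochberg adjustment ran over all genes, threshold 0.05. Intervals are unadjusted. Transcript lengths are from GENCODE M21. Replicates are separate mice. Alternatives were other pseudocounts, filters, scalings, weights, limma-voom, low Xist as a covariate and libraries left out; the length correction, and every alternative for the correlations, were added after seeing the data. Members and lists were chosen with earlier results of these data known. Named genes were the 9 members, Mef2c, the 6 other complement genes with the smallest p, listed partners of the members (1 listed gene is not reported here), and the 3 genes most like C1qa, C3, C4b and Serping1. Ratios, motifs and Snap25 were chosen after values were seen. Python 3.11.15, numpy 2.4.6, pandas 2.3.3, scipy 1.17.1 and matplotlib 3.10.9 were used.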

Additional observations from a re-analysis of the deposited data

Results flagged for a closer look

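In 62 groups of 4 libraries, from 23 complement genes and 8 ratios, 6 had 1 library far from the other 3 by Dixon's gap ratio. Chance flags about 1 in 20, or 3.1 here, and genes of 1 library are not independent. Wild-type library 1 was the high one in 4: C3 (gap ratio 0.840, 643.7 normalized counts against 262.6 to 323.7), Serping1 (0.830, 2446 against 1293 to 1489), Cfb (0.894, 115.5 against 24.2 to 33.9) and Itgam (0.860, 197.3 against 127.4 to 137.2). Library 7 was high in C1qa among the libraries labelled heterozygote (gap ratio 0.904, 1028 normalized counts against 741.6 to 769.0). Library 7 was also high in the ratio of the 3 C1q chains to Csf1r, a macrophage growth factor receptor (gap ratio 0.841, 2.40 against 1.96 to 2.03).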

How the results depend on the processing

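The call of 0 of the 9 complement genes, and of 0 of the 29 other complement genes, was the same in all 19 alternatives over the genes each could fit, where the lowest limma-trend adjusted p was 0.190 (C1qa) among the 9 and 0.0506 (Clu) among the 14 others named. The count over all genes, 12, was 7 with quantile normalization, 96 with array weights and 21 with the length correction, and 0 to 221 when 1 library was left out, with the 221 in the absence of wild-type library 3 and 0 in that of wild-type libraries 2 or 4 or library 8. The sign of the log2 fold change was kept in every alternative by 5 of the 9 genes and changed in the other 4. Without the 2 libraries low in Xist it became 0.017 for C1qb, 0.0032 for C1qc, 0.39 for C3, 0.13 for C4b, 0.032 for C1s1, 0.61 for Cfb, 0.26 for Cfp and 0.26 for C4a. With the length correction it became 0.024 for C1qb, 0.076 for C1qc and 0.050 for Cfp, and with array weights 0.25 for C3, 0.31 for Cfb and 0.15 for Cfp. With 1 library left out the log2 fold changes ran from -0.19 to 0.24 for C3, -0.20 to 0.077 for C4b, -0.29 to 0.022 for C1s1, -0.074 to 0.15 for C2, -0.35 to 0.39 for Cfb, -0.31 to 0.18 for Cfp, -0.056 to 0.35 for Itgam and -0.69 to 0.065 for C4a. Single values that changed sign were 0.24, 0.10 and 0.034 for C3 without wild-type library 1, library 5 or library 6, -0.074 and -0.070 for C2 without wild-type library 3 or library 6, 0.39 and 0.13 for Cfb without wild-type library 1 or library 5, and 0.18, 0.0070 and 0.0036 for Cfp without wild-type libraries 1 or 4 or library 5. The cause was not tested. The correlation of C1qa and C1qb ran from 0.838 to 0.959 and passed in 6 of 13 alternatives. Where libraries were left out, the exact permutation test had fewer orderings, which raises the smallest p it can give. The stricter filter of 50 left no value for C5ar1, Cfb, C4a or Itgax. No paired analysis was possible because the replicate numbers are not shared between the genotypes. Low counts limit C5ar1, whose interval is the widest of the 9.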
